A study of Rattus norvegicus with 8 samples.

Results

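The miR-181 family was followed through the synovial tissue of rat knees on 8 microRNA arrays, 4 hybridised after anterior cruciate ligament transection (ACLT) and 4 after sham surgery. Its members were the probes on the array for the 5′ arms rno-miR-181a-5p, rno-miR-181b-5p, rno-miR-181c-5p and rno-miR-181d-5p, chosen by name and written below without the species prefix, and they are 4 of the 758 rat miRNAs on the array. Each member had 2 probes with 8 spots each, so the family filled 8 of 1806 miRNA probes and 64 of 12128 spots on an array. ACLT cuts a ligament that holds the tibia under the femur and serves as a surgical model of osteoarthritis. Every sample came from the left knee of Sprague-Dawley rats, and in the sham knees the ligament was reached by the same approach and left whole. In both groups the synovium, the lining of the joint, was taken from the side of the knee away from the cut in the skin. The labels disagree on the time, which is 14 days in the title, 2 weeks in the protocol and 7 days in the design text. They number the replicates 1 to 4 without saying that these were separate animals, so p-values reflect only how these samples scatter, and that scatter may be technical. No age or sex is stated.

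A miRNA guides a silencing complex to messenger RNAs, mostly through its seed, the stretch at bases 2 to 8 from its 5′ end. Members of one seed family can therefore bind overlapping sets of targets. The miR-181 family is best known from lymphocytes: miR-181a is abundant in developing thymocytes of the mouse, where it raises the sensitivity of the T cell receptor by lowering several phosphatases, and it promotes B cell differentiation. Members are also made outside the blood, among other places in brain and muscle.

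The mature sequences are shown because the members share their seed and differ further along, which bears on what an array probe can tell apart. All 4 members were matched by name in RefSeq (assembly GRCr8). The seed is in capitals.
miR-181a-5p: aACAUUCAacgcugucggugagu
miR-181b-5p: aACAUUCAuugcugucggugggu
miR-181c-5p: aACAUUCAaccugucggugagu
miR-181d-5p: aACAUUCAuuguugucggugggu

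The seed ACAUUCA was identical in the 4 members, and no other of the 693 mature rat names in the RefSeq table carried it. Counted from 1 at the 5′ end, with the base of the first-named miRNA before the position, miR-181a-5p and miR-181b-5p differ by A9U, C10U and A21G. miR-181b-5p and miR-181d-5p differ by 1 substitution, C12U. miR-181a-5p and miR-181d-5p differ by 4 substitutions, A9U, C10U, C12U and A21G. miR-181c-5p is 22 bases long against 23 for the others, and 1 deleted base separates it from miR-181a-5p. The probe sequences were not used here, and cross-hybridisation between members was not tested.

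The family is encoded by 6 genes at 3 loci, each holding 2 neighbouring hairpins. miR-181a-5p is read from Mir181a-1 (chr13:52037081-52037103, plus strand) and from Mir181a2 (chr3:43025601-43025623, plus strand), so its signal cannot be assigned to either locus. miR-181b-5p is annotated at Mir181b1 (chr13:52037263-52037285, plus strand), with 61 bases between its hairpin and that of Mir181a-1, and the hairpin of Mir181b2 holds the same mature sequence, 986 bases from the hairpin of Mir181a2. miR-181c-5p comes from Mir181c (chr19:40888314-40888335, plus strand) and miR-181d-5p from Mir181d (chr19:40888484-40888506, plus strand), with 77 bases between their hairpins. These positions are those of GRCr8, and the array's own grid names build rn4.

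Over the series, 199 miRNAs were detected on at least 1 array by the scanner software and 103 on all 8. The 75th percentile of signal, taken over probes that stood well above background on every array and used here as an array's brightness and as its scale, was 797, 1097, 353 and 305 intensity units on ACLT arrays 1 to 4, against 289, 317, 353 and 1185 on sham arrays 1 to 4. Sham replicate 4 and ACLT replicates 1 and 2 thus stood apart as the brightest arrays. All arrays lay on 1 slide, where row 1 took replicates 1 and 2 of either group and row 2 took replicates 3 and 4.

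miR-181a-5p, miR-181b-5p and miR-181d-5p were detected in every sample, and miR-181c-5p in few. miR-181c-5p was called detected on ACLT replicate 2 and sham replicate 4 alone. The other 6 arms of these hairpins on the array, miR-181a-1-3p, miR-181a-2-3p, miR-181b-1-3p, miR-181b-2-3p, miR-181c-3p and miR-181d-3p, were detected on 0 of 8 arrays and were well above background on 0. A probe passed as well above background where the share of its spots so marked reached 0.5. By that measure miR-181a-5p and miR-181b-5p passed on 4 of 4 ACLT and 4 of 4 sham arrays, miR-181d-5p on 2 of 4 and 2 of 4, and miR-181c-5p on 0 of 4 and 1 of 4. Levels of different members were not compared with each other, because probes differ in how strongly they bind.

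Before scaling, the processed signal of miR-181a-5p on its brighter probe was 190.6, 271.5, 112 and 89.3 units on ACLT arrays 1 to 4, against 123, 123, 114 and 292 on sham arrays 1 to 4. The highest value belonged to sham replicate 4 and the lowest to ACLT replicate 4, and the groups overlapped. It averaged 166 ± 82.8 in ACLT samples and 163 ± 85.7 in sham samples (SD, n = 4 each). miR-181b-5p had 36.7, 38.1, 25.4 and 24.7 units on the ACLT arrays, against 28.7, 28.9, 26.7 and 43.5 on the sham arrays. The 3 brightest arrays gave its 3 highest signals, in both groups, and it averaged 31.2 ± 7.14 in ACLT samples and 31.9 ± 7.79 in sham samples (SD, n = 4 each).

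miR-181d-5p had 20.96, 20.8, 14.7 and 12.6 units on the ACLT arrays, against 12.5, 16.6, 16.3 and 21.6 on the sham arrays. The lowest signal that counted as well above background lay between 13.1 and 17.3 units per array, so this member sat near that limit throughout. miR-181c-5p had 9.27, 13.6, 5.54 and 4.67 units on the ACLT arrays, against 3.62, 3.90, 3.55 and 17.6 on the sham arrays. Only sham replicate 4 exceeded the limit, so no difference between the groups could be measured for miR-181c-5p, and even the bound on its fold came to under 1-fold. The spread between spots of a probe, as a median coefficient of variation over arrays, was 4.77% for miR-181a-5p and 8.61% for miR-181b-5p, against 20.8% for miR-181d-5p and 37.1% for miR-181c-5p.

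**Figure D1:**
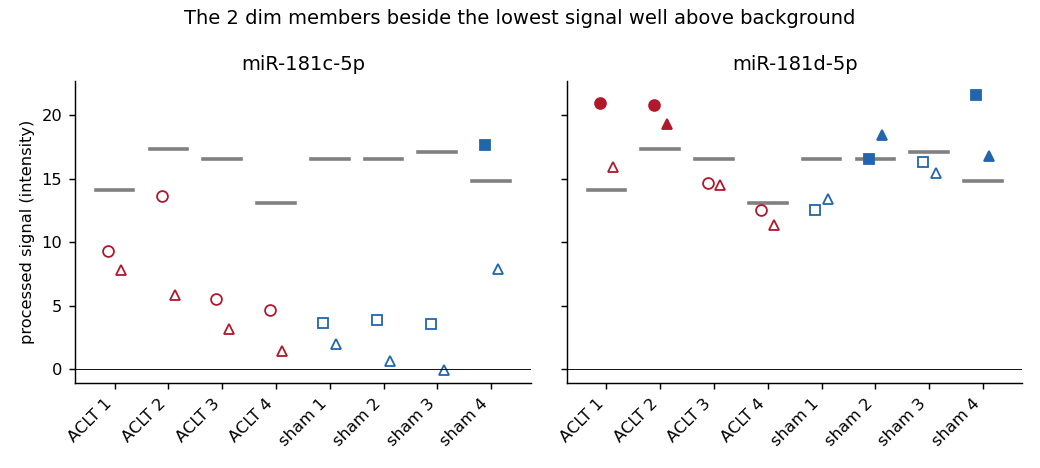
Processed signal (linear intensity, y axis) of miR-181c-5p and miR-181d-5p on each array (x axis), with circles for the brighter probe in ACLT samples, squares for it in sham samples and triangles for the dimmer probe. Filled points were well above background, and each grey bar is the lowest signal well above background on that array: miR-181c-5p reached it on sham replicate 4 alone, while miR-181d-5p lay around it on all arrays.

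The signals of the 3 members detected throughout varied less over the arrays than array brightness did. Brightness spanned 4.10-fold over the 8 arrays, while miR-181a-5p spanned 3.27-fold, miR-181b-5p 1.76-fold and miR-181d-5p 1.73-fold. Of the 84 miRNAs well above background on all arrays, 11 had a smaller range than miR-181a-5p and 2 a smaller range than miR-181b-5p. The median range of those 84 was 5.06-fold and the lowest 1.61-fold, and 23 of them spanned less than brightness. On its brighter probe, at 24.7 to 43.5 units, miR-181b-5p was thus among the steadiest signals before scaling. Its dimmer probe, at 12.2 to 25.2 units, spanned 2.07-fold. The part of low intensity in these ranges was not tested. Dividing by brightness widened the range of miR-181b-5p on its brighter probe to 2.86-fold and that of miR-181d-5p to 2.87-fold. It narrowed that of miR-181a-5p to 1.79-fold.

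**Figure D2:**
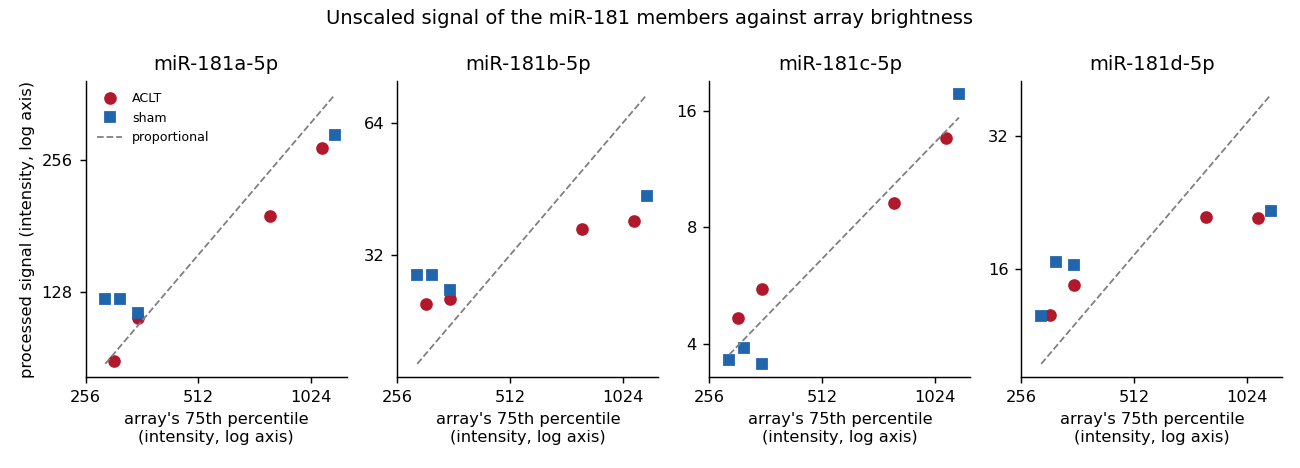
Processed signal of each member's brighter probe (y axis, log scale) against the array's 75th percentile signal (x axis, log scale), 1 point per array, with circles for ACLT and squares for sham. The dashed line marks signal in proportion to brightness: the points of miR-181b-5p and miR-181d-5p follow a flatter course, spanning 1.76-fold and 1.73-fold over arrays whose brightness spans 4.10-fold.

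ACLT was compared with sham on log2 signals divided by each array's 75th percentile. This asks whether a member's signal relative to that percentile changed when the ligament was cut. Values under 0.0449 of the percentile, a log2 of -4.48, were set to that floor. No member changed past the test. miR-181a-5p was 1.25-fold lower in the mean after ACLT and miR-181b-5p lower by 0.34 on the log2 scale, both within the spread of the arrays.

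The scaled log2 signal of miR-181a-5p was -2.06, -2.01, -1.66 and -1.77 on ACLT arrays 1 to 4, against -1.23, -1.36, -1.63 and -2.02 on sham arrays 1 to 4. Sham replicates 1 and 2 were the highest and sham replicate 4 lay among the ACLT arrays. The lowest values, -2.06, -2.02 and -2.01, came from the brightest arrays, ACLT replicate 1, sham replicate 4 and ACLT replicate 2. The means were -1.88 ± 0.19 in ACLT samples and -1.56 ± 0.35 in sham samples (SD, n = 4 each), a difference of -0.32 (SE 0.19, 95% interval -0.77 to 0.13, limma with Benjamini-Hochberg adjustment over 113 miRNAs, adjusted p = 0.761). The dimmer probe of miR-181a-5p gave -0.42 (interval -1.14 to 0.30). Without sham replicate 4 the difference was -0.47, with an interval of -0.82 to -0.12 and a limma adjusted p of 0.141, and without sham replicate 1 it was -0.21 (interval -0.66 to 0.25).

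For miR-181b-5p the scaled log2 signal was -4.44, -4.48, -3.79 and -3.63 on the ACLT arrays, against -3.33, -3.46, -3.73 and -4.48 on the sham arrays. ACLT replicate 2 and sham replicate 4 were at the floor, with -4.85 and -4.77 before it was applied. The probe was well above background on both, and their own lowest signals well above background lay at -5.98 and -6.32. The floor common to all arrays thus raised measured values there. ACLT replicate 2, sham replicate 4 and ACLT replicate 1 were the brightest arrays and gave the lowest values of miR-181b-5p. The means were -4.08 ± 0.44 in ACLT samples and -3.75 ± 0.51 in sham samples (SD, n = 4 each), which differed by -0.34 (SE 0.31, interval -1.08 to 0.41, limma adjusted p = 0.840). Leaving out 1 array moved it to between -0.58 (without sham replicate 4, limma adjusted p = 0.351) and -0.20 (without sham replicate 1), with -0.21 without ACLT replicate 2 and -0.22 without ACLT replicate 1. It was -0.06 with quantile normalization and -0.04 with 2 times the floor.

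miR-181d-5p reached the floor in all 4 ACLT samples and in sham replicates 1 and 4, with sham replicate 2 at -4.26 and sham replicate 3 at -4.44. Its means were therefore -4.48 in ACLT samples and -4.41 ± 0.10 in sham samples (SD, n = 4 each), and the difference of -0.06 (SE 0.06, interval -0.21 to 0.08, limma adjusted p = 0.840) is set by the floor. Without the floor it had -5.25, -5.72, -4.59 and -4.60 on the ACLT arrays, against -4.53, -4.26, -4.44 and -5.78 on the sham arrays. The 2 lowest ACLT values and the lowest sham value came from the 3 brightest arrays. The difference was then -0.29 (interval -1.26 to 0.68).

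**Figure D3:**
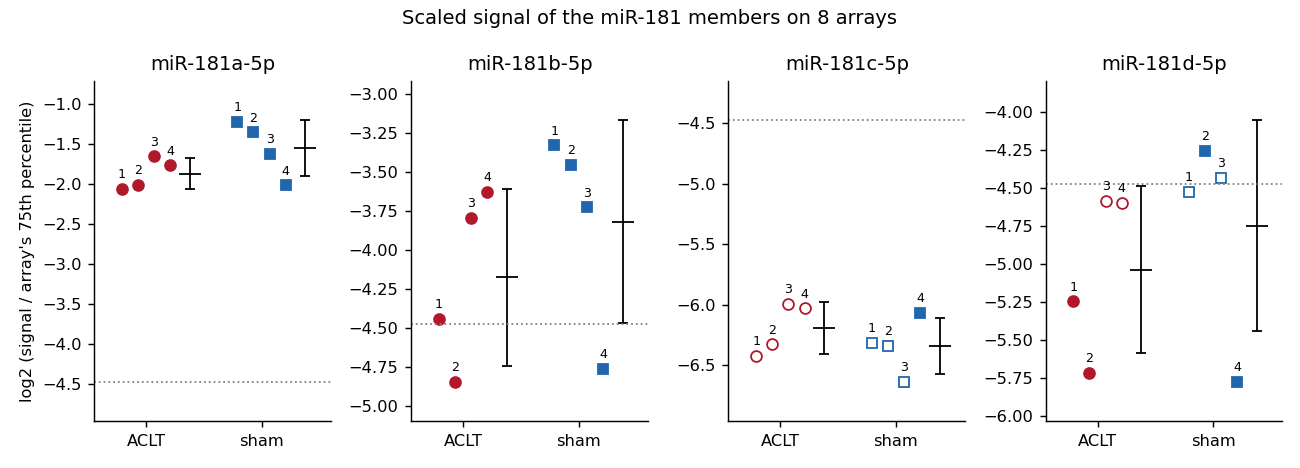
Scaled log2 signal without the floor (y axis) of the 4 members in ACLT (circles, left) and sham (squares, right) samples, numbered by replicate, with the group mean and SD beside them and the floor of -4.48 as a dotted line. Filled points were well above background. The groups overlap in every panel, and sham replicate 4 is the lowest sham array for miR-181a-5p (-2.02), miR-181b-5p (-4.77) and miR-181d-5p (-5.78).

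The test covered the 113 miRNAs detected in all 4 samples of either group, among them 3 of the 4 members. By limma 0 of the 113 (0%) passed at an adjusted p of 0.05, while for 8 (7.08%) the unadjusted p was under 0.05, none of them a member. The groups stood apart without overlap for 0 of 113 (0%). The difference was negative for 3 of 3 tested members, with a median of -0.32, and for 73 of all 113, with a median of -0.07, 38 being positive and 2 exactly 0. The 3 members share a seed, a scale and in part their sequence, and are not independent of each other. Ordered by p, miR-181a-5p stood 20th, miR-181b-5p 37th and miR-181d-5p 38th of the 113.

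The sign of the members' differences depended on the scaling, as did that of most miRNAs. With no scaling the difference was 0.0055 for miR-181a-5p, -0.03 for miR-181b-5p and 0.071 for miR-181d-5p. With each array's percentile taken over all probes, the 3 were 0.059, 0.021 and 0.089, and 95 of all 113 differences were positive and 18 negative. With the labelling spike-in probes as the scale they were -0.52, -0.56 and -0.29, and 14 of 113 were positive and 99 negative. The spike-in signal was 476, 312, 199 and 188 on ACLT arrays 1 to 4, against 141, 152, 157 and 386 on the sham arrays. The median over all 113 moved from -0.07 to 0.19 with no scaling, 0.25 with the percentile over all probes and -0.28 with spike-ins. Set against that median, miR-181a-5p lay between -0.26 and -0.18 and miR-181b-5p between -0.28 and -0.06 under the main scaling and the 6 others tried. miR-181d-5p lay between -0.16 and 0.011, below the median in 5 of these 7 scalings and 0.0086 above it in the main one. These offsets are within the spread of the arrays, and scalings that shift all miRNAs of an array alike leave it nearly as it is by construction.

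Array brightness separated the groups in row 1 of the slide, while in row 2 a single sham array was bright. In row 1 the 2 ACLT arrays exceeded the 2 sham arrays in brightness, and there miR-181a-5p fell by 0.75 (interval -0.99 to -0.50, limma adjusted p = 0.0497) and miR-181b-5p fell by 1.07 (interval -1.30 to -0.83, limma adjusted p = 0.0336), with n = 2 a group. They were among 8 of 113 miRNAs (7.08%) called in that row, while miR-181d-5p differed by -0.11 (limma adjusted p = 0.595), with the floor reached on 3 of its 4 arrays. On the same 4 arrays without scaling the differences were positive, 0.88 for miR-181a-5p, 0.38 for miR-181b-5p and 0.33 for miR-181d-5p (limma adjusted p = 0.0598, 0.0611 and 0.0689), beside a median of 1.40 over all 113. In the scaled row 1 comparison of miR-181b-5p, the floor raised ACLT replicate 2 from -4.85 to -4.48, beside -4.44 on ACLT replicate 1. This narrowed the spread within the ACLT arrays of that row. In row 1, brightness and ligament transection cannot be told apart.

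In row 2 the brightest array was sham replicate 4. The scaled differences there were 0.11 for miR-181a-5p, 0.39 for miR-181b-5p and -0.02 for miR-181d-5p (limma adjusted p = 0.877 for miR-181a-5p and 0.819 for miR-181b-5p), and limma called 0 of 113 (0%), with 10 (8.85%) at an unadjusted p under 0.05. Without scaling the row 2 differences were -0.87 for miR-181a-5p, -0.44 for miR-181b-5p and -0.19 for miR-181d-5p, beside a median of -0.85 over all 113. The signs of the scaled differences of miR-181a-5p and miR-181b-5p thus differed between the rows, and the difference between rows was not tested. With brightness as a covariate over all 8 arrays, the difference was -0.23 for miR-181a-5p (interval -0.47 to 0.01) and -0.17 for miR-181b-5p (interval -0.36 to 0.02), each with a limma adjusted p of 0.370. Without the 3 brightest arrays, which leaves 2 ACLT and 3 sham samples, it was -0.31 for miR-181a-5p and -0.20 for miR-181b-5p (limma adjusted p = 0.390 and 0.605).

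**Figure D4:**
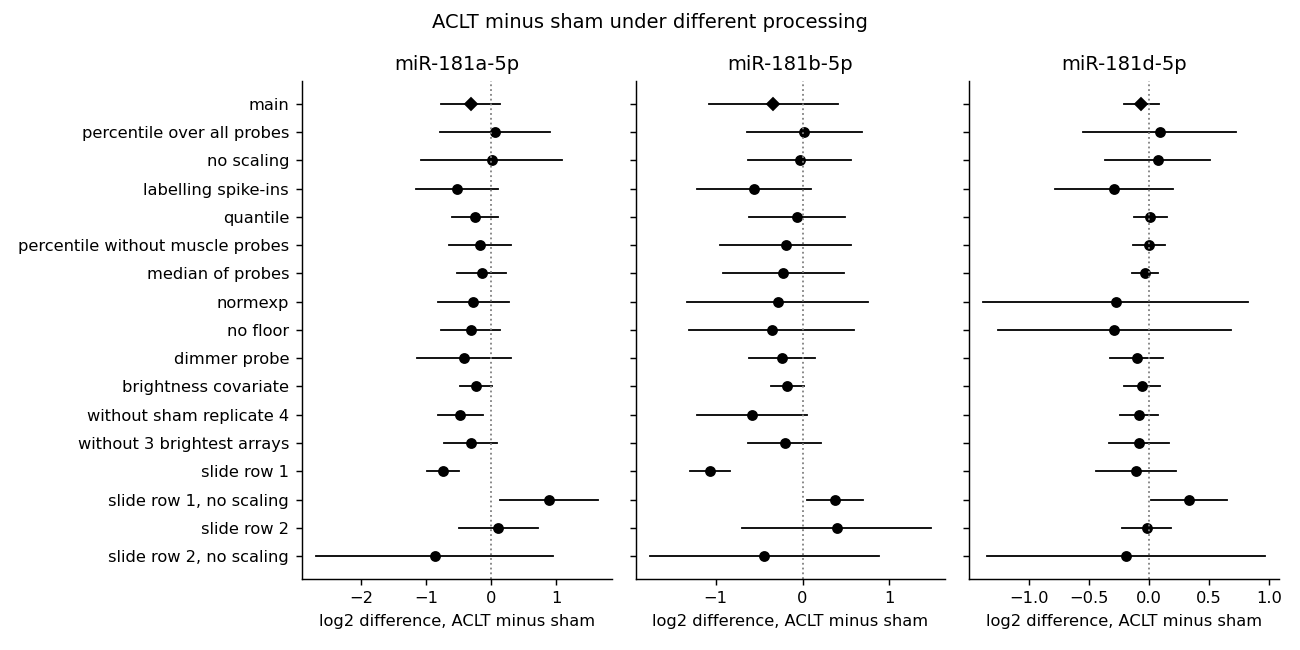
Log2 difference of ACLT minus sham (x axis) with its 95% limma interval for the 3 tested members, 1 row for each way of processing the arrays; the diamond is the value of the main comparison and the dotted line is 0. For miR-181a-5p the difference is -0.75 within slide row 1 after scaling and 0.88 within the same row without scaling.

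Over the 8 arrays the tested members went up and down together. The unscaled signals of miR-181a-5p and miR-181b-5p had a Pearson r of 0.977 and a Spearman rho of 0.976. For miR-181a-5p and miR-181d-5p r was 0.882, and for miR-181b-5p and miR-181d-5p it was 0.874. After scaling, without the floor, these values were 0.899, 0.828 and 0.965. The points share array brightness before scaling and a common divisor after it, and each r is a description of 8 arrays.

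Outside the family, the scaled pattern of miR-181a-5p over the 8 arrays was closest to those of miR-494-3p, miR-125a-5p and miR-1224, among 77 tested miRNAs above the floor on every array. miR-494-3p, encoded in the imprinted Dlk1-Dio3 region, had a Pearson r of 0.866 and a rho of 0.881, and its own difference was -1.16 (limma adjusted p = 0.806). miR-125a-5p, which is related to lin-4 of the worm, had an r of 0.851 and a rho of 0.952, with a difference of -0.14. miR-1224 had an r of 0.849 and a rho of 0.881, with a difference of -0.79. Without the 2 arrays farthest from the median of miR-181a-5p, sham replicates 1 and 2, r was 0.978, 0.833 and 0.937 for these 3. The brightest arrays, ACLT replicates 1 and 2 and sham replicate 4, stayed in. The part of array brightness in these likenesses was not tested. The ranking covers miR-181a-5p only, since the other members reached the floor on some arrays.

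Because the family is known from lymphocytes, it was set beside 11 miRNAs of lymphocyte development and activation. Of these, 6 were tested and 0 passed in either direction. All 6 differences were negative, as were 73 of all 113 (64.6%), and lay between -0.21 and -0.07 with a median of -0.14 beside -0.07 over all 113. Their sign followed the scaling: 6 of 6 were positive with no scaling or with the percentile over all probes, and 6 of 6 negative with spike-ins. miR-146a-5p, which is induced by inflammatory signalling, stood at -0.13, and miR-142-3p, found throughout blood cells, at -0.15. miR-92a-3p and miR-20a-5p of the miR-17-92 cluster, which promotes lymphocyte survival, stood at -0.17 and -0.11.

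Markers of the cell types that synovium can hold were read on the same scale, as sums of scaled signal per array. The tested leukocyte markers, 4 of 6, had 0 passing in either direction, and their sum was 0.422 to 0.533 on ACLT arrays and 0.457 to 0.568 on sham arrays. Among them miR-223-3p, abundant in granulocytes and monocytes, differed by -0.32 (limma adjusted p = 0.645) and miR-150-5p, a miRNA of mature lymphocytes, by -0.21. The 4 differences were negative here and with spike-ins, and positive with no scaling or the percentile over all probes. The mesenchymal markers, with 6 of 7 tested, summed to 6.61 to 10.3 on ACLT arrays and 5.90 to 8.98 on sham arrays, and were well represented in every sample. miR-126a-3p, the endothelial marker tested, had a difference of -0.20, which was 0.12 with no scaling. The erythroid markers, with 2 of 3 tested and 0 passing, summed to 0.423 to 0.924 on ACLT arrays and 0.445 to 1.43 on sham arrays. Of these, miR-451-5p differed by -0.53 and miR-144-3p by -0.69 (limma adjusted p = 0.840 and 0.732). Both differences stayed negative with no scaling, with the percentile over all probes and with spike-ins.

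The striated muscle markers varied most between samples. With 4 of 7 tested and 0 passing, they summed to 0.181 to 16.0 on ACLT arrays and 1.43 to 6.14 on sham arrays, all 4 differences being positive with a median of 0.47 (3 of 4 positive with spike-ins). On ACLT replicate 2, miR-1-3p, miR-133a-5p and miR-206-3p, which is made in skeletal muscle, were at the floor. miR-133b-3p stood just above it there, at -4.44, so the sum of 0.181 is set by the floor. Of the neural markers miR-124-3p and miR-9a-5p were detected on no array and miR-128-3p differed by 0.12 (0 passing), and none of the 7 epithelial markers was detected on any. The part of each cell type in the members' levels was not tested, and in bulk tissue fewer cells of a type and less RNA per cell cannot be told apart. Leaving the striated muscle probes out of the percentile moved miR-181a-5p to -0.18 and miR-181b-5p to -0.19.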

How the data were processed

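Total RNA from synovium was measured on 1-colour (Cy3) Agilent arrays. Per the labels' protocols, 50 ng was labelled with a Low Input Quick Amp kit, which is made for messenger RNA; the labels name no other kit. Per the file headers, scans were quantified by Agilent Feature Extraction, version 10.7.3.1 (protocol miRNA_107_Sep09, design 070154). The deposited processed signals are intensity values, background-subtracted and not scaled between arrays. The value table deposited by the authors matches the summary that Feature Extraction gave each miRNA (largest difference 0): it is linear intensity, uncentred, with 0.1 where not detected and as each column's median.

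Control and outlier spots (9.01% to 11.1% per array) were left out, and no spot was saturated. Spots were averaged per probe and divided by the array's 75th percentile, taken over 136 probes that were well above background in every sample. Values were then floored at 0.0449, the median over arrays of the lowest scaled signal well above background. The log2 values are those of the deposited signals after these steps. A miRNA was represented by its brightest probe over all arrays. miRNAs detected in all 4 samples of either group were tested. Groups came from sample titles. ACLT was set against sham with limma 3.58.1 in R 4.3.3 (lmFit, eBayes without trend, 8 arrays), with Benjamini-Hochberg adjustment at 0.05 and 95% intervals, after a run on simulated data. The number of arrays limits the precision, and 10.5% to 17.0% of spots per array were well above background.

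Members and lists were chosen with earlier results of these data known. Named are the members, the family's other arms, the 3 miRNAs most like a member by r, and up to 4 per list by smallest p. Alternatives were other scalings, floors, probes, filters and variance models, a block for slide row or replicate number, brightness and leaving out arrays. Background correction by normexp used median signals with an offset of 50.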

Additional observations from a re-analysis of the deposited data

Results flagged for a closer look

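Of 48 group values checked (chance flags about 1 in 20, or 2.4), 1 held an array set well apart. It was miR-1224, among the miRNAs most like miR-181a-5p, in the sham group: replicate 4 stood at -3.63 and replicates 1 to 3 between -0.54 and 0.04, a gap of 0.841 of the group's range. No value of a miR-181 member stood out in this way. The check read values after the floor. The ACLT values of miR-181d-5p and the sham values of miR-128-3p, all at the floor, could not be flagged. They still count among the 48, and so in the 2.4 given for chance.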

How the results depend on the processing

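Of 37 alternatives for each tested member, 32 kept the direction and the side of the threshold for miR-181a-5p, 33 for miR-181b-5p and 33 for miR-181d-5p. Several of these changed only the variance model, a block, the miRNAs tested or a floor that miR-181a-5p never reached. Its difference stayed at -0.32 there by construction. With 2 times the floor miR-181b-5p was -0.041 and miR-181d-5p, at the floor on every array and counted among the 33, had no direction. Quantile normalization gave -0.06 for miR-181b-5p. With the percentile over all probes the differences turned to 0.059, 0.021 and 0.089 (miR-181a-5p, miR-181b-5p and miR-181d-5p, median 0.059). There r between miR-181a-5p and miR-181b-5p was 0.672 beside 0.937 with the main scaling, both after the floor. Without the floor the main value was 0.899. With no scaling miR-181a-5p was 0.0055 and miR-181d-5p 0.071 (median 0.0055), and with quantile normalization miR-181d-5p was 0.011. The authors' value table gave a median of -0.025. Slide row 1 alone gave -0.75 for miR-181a-5p and -1.07 for miR-181b-5p (median -0.75) with 8 calls, and row 2 alone 0.11 and 0.39 (median 0.11). Row 1 without scaling, added after seeing the data, gave 0.88, 0.38 and 0.33 (median 0.38) with 44 calls. The cause was not tested.

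Leaving out each array gave -0.47 to -0.21 for miR-181a-5p, -0.58 to -0.20 for miR-181b-5p and -0.086 to -0.013 for miR-181d-5p. It also gave a median of -0.47 to -0.20, an r after the floor of 0.922 to 0.988 and 0 calls by limma. Over all alternatives the adjusted p lay between 0.0497 and 1.00 for miR-181a-5p and between 0.0336 and 1.00 for miR-181b-5p. With the replicate number as a block, the differences were as before (-0.32, -0.34 and -0.06), with limma adjusted p of 0.839, 0.881 and 0.881, 0 calls, and 4 unadjusted p under 0.05. As deviations from the group mean over the tested miRNAs, same-numbered arrays correlated at -0.193, 0.592, 0.799 and -0.410. Of these, 2 of 4 matched their own number best. The arrays also differ in brightness, so these values cannot tell whether the numbers pair the samples. Signals near background limit miR-181c-5p and miR-181d-5p.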
